A study of Mus musculus with 6 samples.

Results

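The mitochondrial ribosome is the translation machine inside mitochondria. Its RNA is encoded by mitochondrial DNA, and all of its proteins are encoded in the nucleus, made in the cytosol and imported. It makes only the membrane-embedded subunits of the respiratory chain and ATP synthase that mitochondrial DNA encodes. Proteins of its large subunit carry the symbol Mrpl and those of its small subunit Mrps. Many are homologs of bacterial ribosomal proteins, and others exist only in mitochondria.

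The genes described here are the 78 rows of the deposited gene table, out of 45777, whose symbol starts with Mrpl or Mrps and a number and whose biotype is protein-coding. By the assignment of ribosome structures, 51 belong to the large subunit and 26 to the small subunit. In the unified naming of ribosomal proteins, 46 share a name with a bacterial protein, and these are called bacterial homologs below. The other 31 have a name used for mitochondria alone and are called specific to mitochondria. The split is one of names, so some of the 31 can still be related to bacterial proteins. Mrps30 and Mrps18a carry small subunit names but sit in the large subunit. Mrps36 is no longer counted as a ribosomal protein, since its product is known as a component of the 2-oxoglutarate dehydrogenase complex of the citric acid cycle. It was kept because the rule on symbols takes it in.

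The mRNA of epididymal fat from mice of C57BL/6 background was sequenced after 24 h without food. There were 3 libraries from mice with both Pak4 alleles floxed (labelled WT) and 3 from mice with the same alleles plus Adipoq-Cre (labelled KO), so the floxed alleles are common to both groups. Adipoq-Cre is active in adipocytes, while the RNA came from excised fat, although the labels also name the cell type as adipocytes. The comparison asks how loss of the kinase Pak4 from adipocytes changes the transcripts of the fasted pad.

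Each library held between 62854465 and 72005658 counts. Levels compared between libraries are counts per 1000000 scaled by TMM factors (CPM). Pak4 had 339, 337 and 358 reads under the WT label and 815, 744 and 675 under the KO label, so the targeted gene goes against the labels. All directions below are therefore between labels and not between genotypes. Adipocyte markers were abundant, with a summed level over 6 genes of 60149 to 67376 TPM (transcripts per 1000000, a scale corrected for transcript length) with the WT label and 57869 to 60891 TPM with the KO label, and 1 of the 6 had a log2 fold change above 0. The ranges of both labels overlapped for the adipocyte sums, and also for those of mesothelial and skeletal muscle markers. They were separate for progenitor, macrophage and endothelial markers. The 4 progenitor markers summed to 1443 to 1715 TPM with the WT label and 1826 to 3036 TPM with the KO label (3 of 4 above 0), and the 5 mesothelial markers to 335 to 570 and 560 to 688 TPM (5 of 5 above 0). The 6 macrophage markers summed to 293 to 350 TPM with the WT label and 361 to 493 TPM with the KO label, and the 5 endothelial markers to 114 to 153 and 78.6 to 94.4 TPM. Skeletal muscle markers (4 genes) ranged from 98.6 to 691 TPM and from 11.5 to 192 TPM, and the 4 epididymal markers reached at most 0.385 TPM, with Lcn5 at 0 in all 6. The part of these cells in the values below was not tested, and in whole tissue fewer cells of a type cannot be told apart from less RNA per cell. The labels do not say that each replicate number is a separate mouse, so the tests measure the spread between these libraries.

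All 78 genes were expressed. Each had enough reads to be tested, and the lowest count of any of them in any library was 323. Together they made up 4590, 4433 and 4327 TPM in WT 1, 2 and 3, and 4636, 4324 and 4239 TPM in KO 1, 2 and 3 (names of libraries by label). The range of the libraries labelled WT lay inside that of the libraries labelled KO. Levels per gene, as the mean deposited TPM over the 6 libraries, ranged from 4.81 to 185 with a median of 45.1. This was a 38.4-fold spread among mRNAs, and amounts of protein were not measured. The lowest value was that of Mrpl19, which is uncertain because its exons overlap those of Gcfc2 on the opposite strand. The next lowest was Mrpl35 at 10.6 TPM. The spread also depends on the correction of TPM for transcript length. Without that correction, mean CPM with the WT label ran from 5.98 (Mrpl47) to 82.8 (Mrps6). The order of the genes by TPM was nearly the same in every library. Spearman correlations across the 78 genes were 0.965 to 0.993 between pairs of libraries, which share one annotation and one method of counting. Large subunit genes had a median of 44.5 TPM and small subunit genes one of 45.1 TPM.

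**Figure D1:**
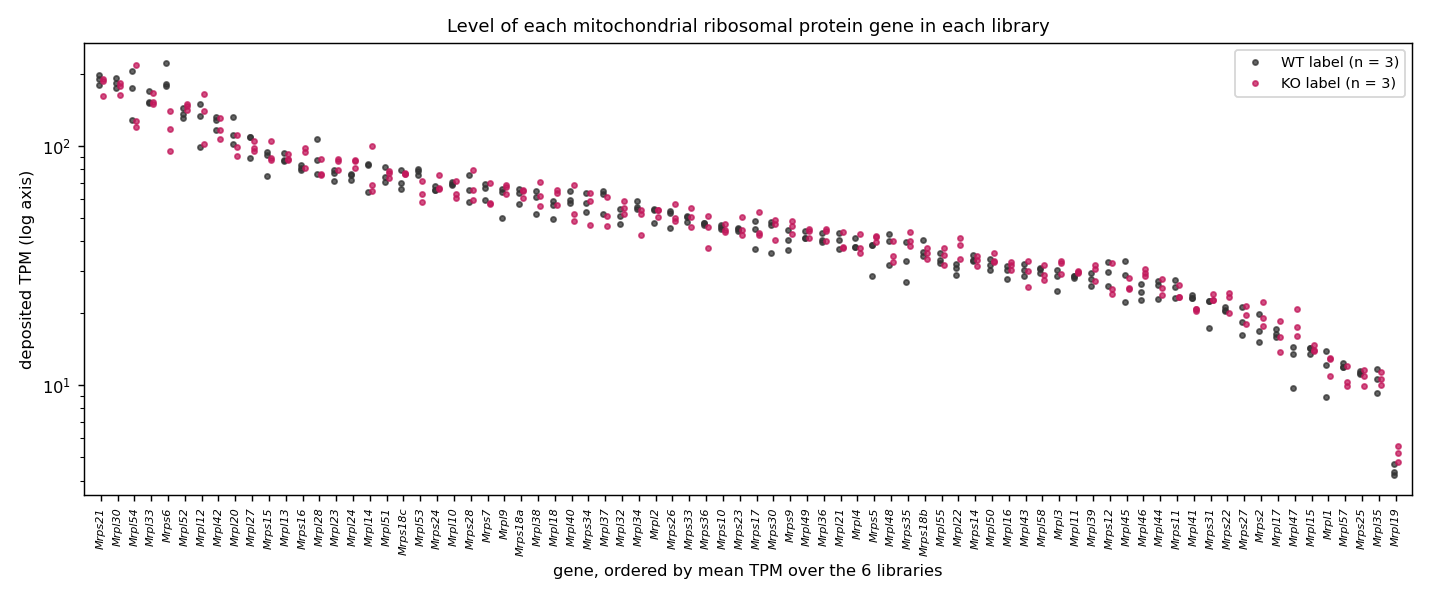
Deposited TPM (log axis) of each of the 78 genes, ordered by the mean over 6 libraries, with 1 point per library in the colour of its label. Mrps21, Mrpl30, Mrpl54, Mrpl33 and Mrps6 lie at the top (156 to 185 TPM) and Mrpl19 at the bottom (4.81 TPM), and the points of both labels are mixed for most genes.

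The 5 most abundant were Mrps21 (185 TPM on average), Mrpl30 (179), Mrpl54 (162), Mrpl33 (157) and Mrps6 (156). Mrps21, Mrpl33, Mrps6 and Mrpl30 are homologs of bacterial S21, L33, S6 and L30, and Mrpl54 is specific to mitochondria. At the other end were Mrpl19 (4.81 TPM), Mrpl35 (10.6), Mrps25 (11.05), Mrpl57 (11.4) and Mrpl1 (11.96). Mrpl1 is the homolog of the mobile stalk protein L1. Mrpl19 and Mrps25 have much of their annotated exon length in common with genes on the opposite strand (36.0% with Gcfc2 and 69.8% with Nr2c2 in GENCODE M21), and although the library kit keeps strand, no source used here says whether the counting used it, so their levels are uncertain.

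The genes differed little between labels. By edgeR's quasi-likelihood test, adjusted by Benjamini and Hochberg's method over all 17820 genes tested, 0 of the 78 passed the threshold of 0.05, as did 0.0168% of all genes. The adjusted p ran from 0.131 for Mrps6 to 0.995 for Mrpl11. At an unadjusted p under 0.05 there were 4 of 78 (5.13%), 1 higher with the KO label (Mrpl47) and 3 lower (Mrps6, Mrpl53 and Mrpl41), against 19.4% of all genes tested, 9.66% on the higher side and 9.71% on the lower side. DESeq2 called 1 of the 78, Mrps6, with 6.46% of all genes called, and limma voom called 0, with 0.0281% of all genes called.

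The fold changes lay close to 0 on both sides. Of the 78 log2 fold changes (KO label over WT label), 31 were above 0 and 47 below, with a median of -0.03 and quartiles of -0.12 and 0.06, beside 52.1% above 0, a median of 0.02 and quartiles of -0.20 and 0.23 over all genes tested. Only 5 of 78 (6.41%) were larger than 0.25 in either direction, beside 43.8% of all genes and 40.8% of protein-coding genes tested. The genes set beside them were not matched for expression level. The large subunit had a median of -0.04 (19 of 51 above 0) and the small subunit one of -0.02 (12 of 26 above 0). Genes with a bacterial homolog stood at a median of -0.02 and those specific to mitochondria at -0.04. Scaling by library size alone, without TMM factors, moved the median of all genes by 0.12 and put 58 of the 78 above 0 with a median of 0.08. Relative to the median of all genes, the 78 lay at -0.05 under both scalings.

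**Figure D2:**
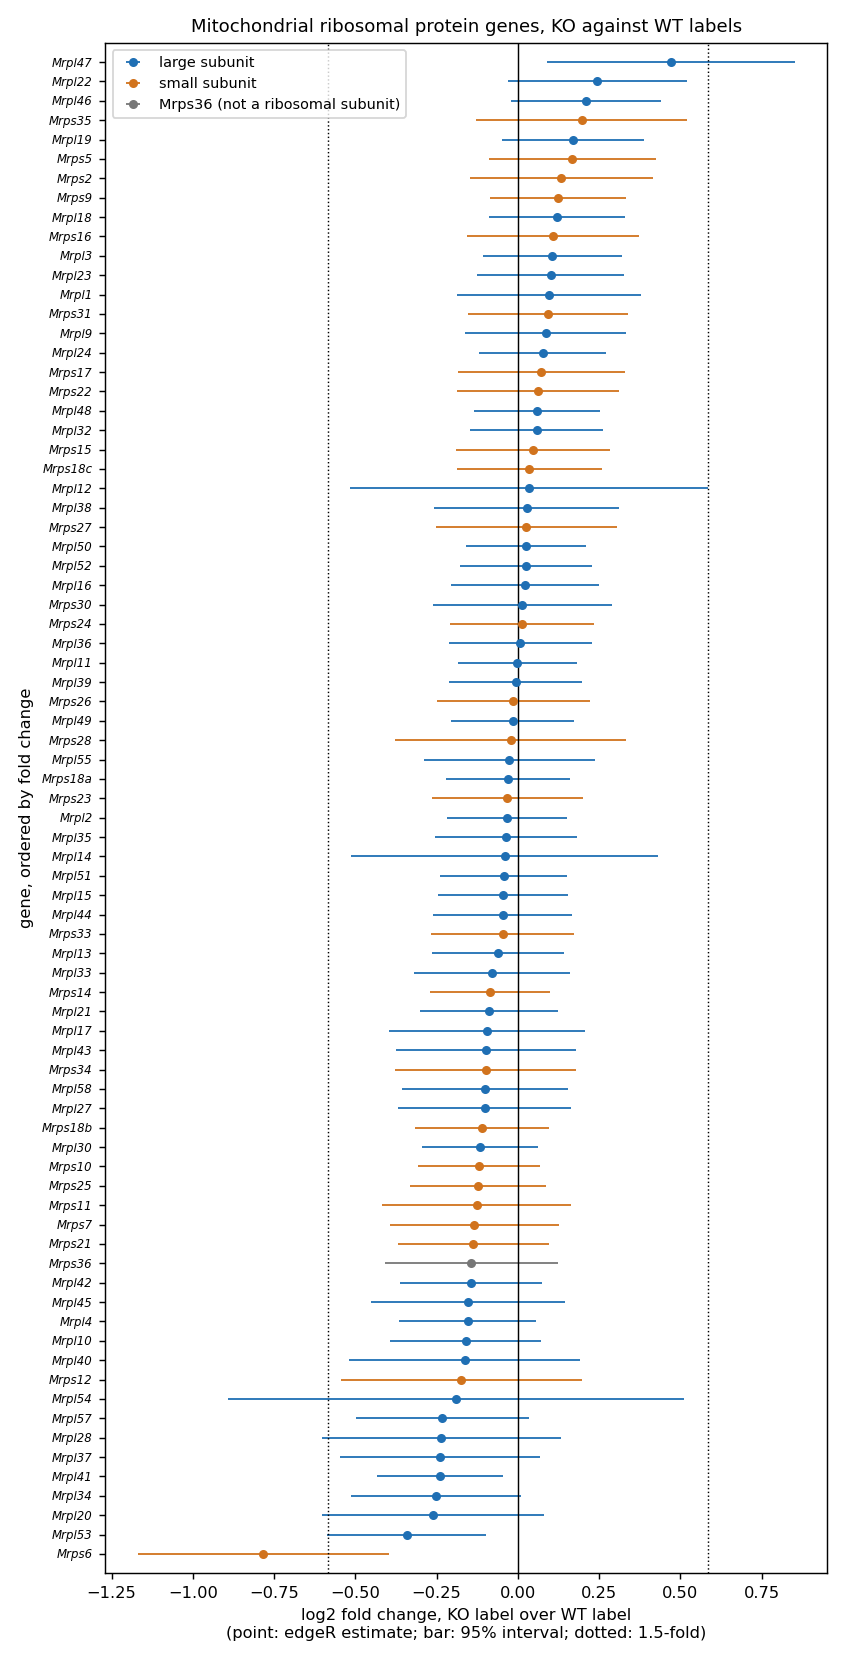
Log2 fold change of each gene, KO label over WT label, as the edgeR estimate (point) with its 95% interval (bar), ordered by value and coloured by subunit. The dotted lines mark a 1.5-fold difference, and 71 of 78 intervals lie between them, with Mrps6 at the bottom (-0.78) and Mrpl47 at the top (0.47).

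The precision was sufficient to bound most of these differences. Standard errors ran from 0.08 to 0.29 on the log2 scale, with a median of 0.10, and the median SD between replicates was 0.10 with the WT label and 0.11 with the KO label, beside 0.17 and 0.19 over all genes tested. For 71 of the 78 genes the 95% interval of the difference lay within 1.5-fold in both directions, as it did for 45.5% of all genes and 52.7% of protein-coding genes tested. The median standard error was 0.16 over all genes tested. These comparisons were not matched for expression level, on which precision depends. Mrpl11, the homolog of a protein of the ribosomal stalk base, had a log2 fold change of -0.0013 ± 0.08 (SE), and Mrps30 of 0.01 ± 0.12, with an interval from -0.26 to 0.29. Mrps18a stood at -0.03 ± 0.08 and Mrps36 at -0.14 ± 0.12. The 7 genes whose intervals crossed a 1.5-fold difference were Mrps6, Mrpl53, Mrpl47, Mrpl20, Mrpl28, Mrpl54 and Mrpl12.

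Mrps6 differed most. It encodes the homolog of bacterial S6, a protein of the small subunit, and lies on chromosome 16 at 92058336 to 92112227 (mm10). Its level was 77.5, 98.3 and 72.8 CPM in WT 1, 2 and 3 and 57.8, 46.8 and 39.9 CPM in KO 1, 2 and 3. Every library labelled KO was below every library labelled WT. The means were 82.8 ± 13.6 and 48.1 ± 9.04 CPM (SD, n = 3 per group), a log2 fold change of -0.78 ± 0.17 (SE) with a 95% interval from -1.17 to -0.40 and an adjusted p of 0.131 in edgeR's quasi-likelihood test. The call turned on the tool and on 1 library. DESeq2 called Mrps6 at -0.79 with an adjusted p of 0.00204. Dropping KO 1 from the edgeR fit also brought it past the threshold, at -0.94 with an adjusted p of 0.0329. Over the 12 alternatives its adjusted p ran up to 0.417.

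Mrps6 shares its start with another gene. Slc5a3, which encodes a sodium-coupled myo-inositol transporter, starts 14 bases before it on the same strand and ends inside it (chromosome 16, 92058322 to 92087473), and in GENCODE M21 the exons of both genes have 159 bases in common, 10.4% of the exon bases of Mrps6. Slc5a3 had 79.9, 97.0 and 81.0 CPM with the WT label and 48.5, 39.1 and 32.3 CPM with the KO label. Its 6 libraries fell into the same 2 separate ranges as those of Mrps6, and WT 2 was the highest and KO 3 the lowest for both genes. The log2 fold change of Slc5a3 was -1.11 ± 0.16 (SE), with an adjusted p of 0.0877 in edgeR. GENCODE M21 also lists Gm49711, a protein-coding gene on the same strand, which shares 305 bases, 19.9% of the exon bases of Mrps6. No source used here says how reads in shared exons were assigned, so the counts of Mrps6 can hold reads of Slc5a3 or Gm49711 and are uncertain.

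The window of 250 bases before and 50 from the start of Mrps6 is printed because the 14-base distance makes it nearly the same for both genes (RefSeq, GRCm38.p6, plus strand, chr16:92058086-92058385). It holds none of the motifs searched below, so it stands in lower case throughout.
Mrps6: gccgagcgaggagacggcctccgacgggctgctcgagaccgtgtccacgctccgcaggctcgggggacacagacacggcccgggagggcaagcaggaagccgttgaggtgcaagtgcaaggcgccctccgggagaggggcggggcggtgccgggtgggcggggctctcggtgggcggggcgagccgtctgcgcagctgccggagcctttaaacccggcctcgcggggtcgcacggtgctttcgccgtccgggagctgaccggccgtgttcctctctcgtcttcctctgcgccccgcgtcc

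**Figure D3:**
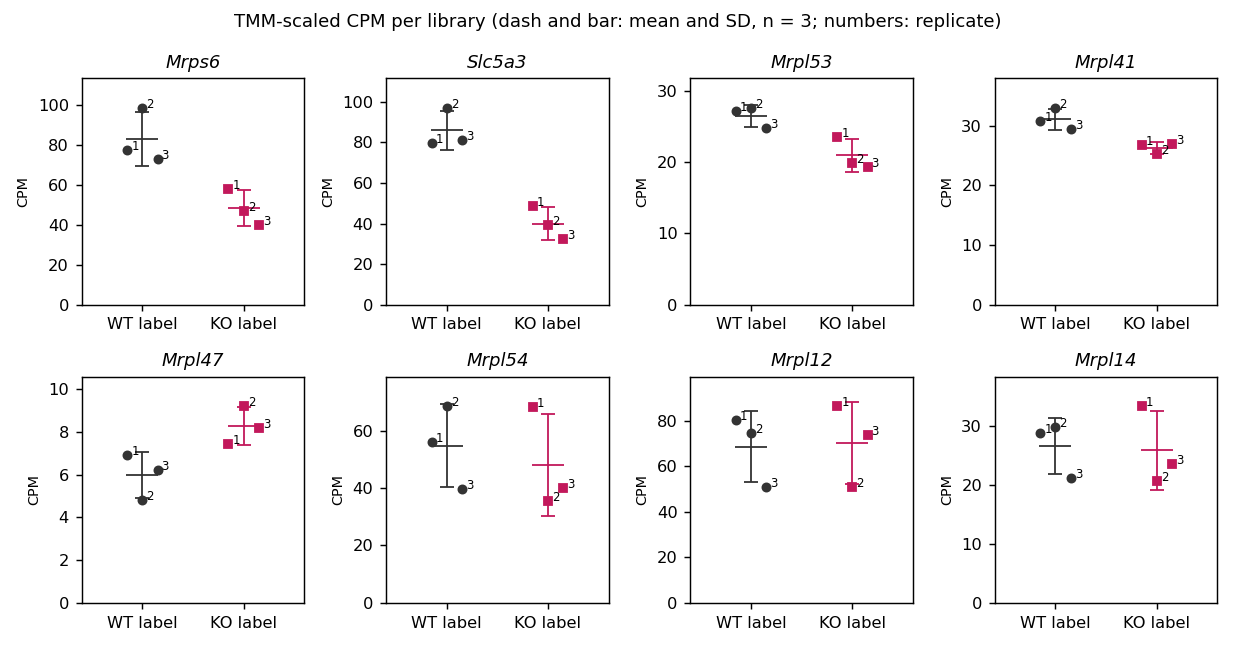
TMM-scaled CPM in each library for 7 of the genes and for Slc5a3, with the mean and SD of each label (n = 3) and replicate numbers beside the points. Mrps6, Slc5a3, Mrpl53 and Mrpl41 have all 3 libraries labelled KO below all 3 labelled WT, Mrpl47 has them above, and Mrpl54, Mrpl12 and Mrpl14 are low in WT 3 and KO 2 and high in KO 1.

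After Mrps6, the smallest p-values belonged to 3 large subunit genes. Mrpl53, specific to mitochondria, had 27.2, 27.6 and 24.7 CPM with the WT label and 23.5, 19.9 and 19.4 CPM with the KO label, a log2 fold change of -0.34 ± 0.11 (SE; adjusted p 0.173 in edgeR). The groups did not overlap, and without KO 1 it passed in edgeR (-0.44, adjusted p 0.0487), with adjusted p up to 0.455 in the other alternatives. In that fit without KO 1, 2 of the 78 passed (Mrps6 and Mrpl53, both lower), with 5.57% of all genes called. GENCODE M21 also lists a longer gene model on the same strand, Gm42688, that covers 88.0% of the exon bases of Mrpl53, while the deposited table has no row for it.

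Mrpl41, also specific to mitochondria, had 30.8, 33.0 and 29.4 CPM with the WT label and 26.7, 25.2 and 26.9 CPM with the KO label (log2 fold change -0.24 ± 0.08, adjusted p 0.199 in edgeR). Mrpl47, the homolog of bacterial L29 beside the exit of the peptide tunnel, was the one with the largest positive difference. Its values were 6.90, 4.82 and 6.21 CPM with the WT label and 7.43, 9.20 and 8.20 CPM with the KO label, a log2 fold change of 0.47 ± 0.16 with an adjusted p of 0.201. Neither gene's groups overlapped. Mrpl47 shares 13.9% of its exon bases with Ndufb5 and 10.2% with Actl6a on the opposite strand, and those genes stood at log2 fold changes of -0.01 ± 0.09 and 0.06 ± 0.08.

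The ranges of both labels were separate for 9 of the 78 (11.5%), 4 higher and 5 lower with the KO label, beside 26.2% of all genes tested. Mrpl46 (0.21 ± 0.10), Mrpl19 (0.17 ± 0.09) and Mrps5 (0.17 ± 0.11) were on the higher side with Mrpl47. Mrpl30 (-0.12 ± 0.08) and Mrps10 (-0.12 ± 0.08) were on the lower side with Mrps6, Mrpl53 and Mrpl41. Mrps5 is the homolog of bacterial S5, near the entry of the mRNA channel. Mrpl46 overlaps Mrps11 on the opposite strand by 12.2% of its exon bases, and Mrps11 stood at -0.13 ± 0.13.

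Among the other large subunit genes with a low rank by p, Mrpl22, whose bacterial homolog L22 lines the peptide tunnel, stood at 0.24 ± 0.12 on the log2 scale, and Mrpl34 at -0.25 ± 0.11, Mrpl57 at -0.23 ± 0.12, Mrpl37 at -0.24 ± 0.13 and Mrpl20 at -0.26 ± 0.15. Their groups overlapped, and their adjusted p in edgeR's test lay between 0.267 and 0.354. Mrps35, the small subunit gene with the largest positive value, stood at 0.20 ± 0.14, with 23.2, 16.4 and 20.1 CPM with the WT label and 22.8, 20.8 and 24.9 CPM with the KO label. Mrps21 (-0.14 ± 0.10) and Mrpl33 (-0.08 ± 0.10), abundant by TPM, overlapped between labels as well. So did Mrps25 (-0.12 ± 0.09), Mrpl35 (-0.04 ± 0.09) and Mrpl1 (0.10 ± 0.12), which were scarce by TPM. That ranking rests on the correction of TPM for transcript length. On the CPM scale Mrpl33 and Mrps25 were close, with means of 40.4 and 37.5 CPM with the WT label.

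A few genes varied between libraries of the same label. Mrpl54 had the largest standard error (0.29), with 56.0, 68.5 and 39.6 CPM with the WT label and 68.2, 35.6 and 39.9 CPM with the KO label. Mrpl12, the homolog of the stalk protein L7/L12, had 80.2, 74.7 and 50.8 CPM and 86.3, 50.7 and 73.7 CPM. Mrpl14, the homolog of bacterial L14 at the interface of the subunits, had 28.8, 29.9 and 21.2 CPM and 33.4, 20.8 and 23.6 CPM. The lowest 2 libraries were WT 3 and KO 2 for all 3 genes, and Mrpl12 and Mrpl14 were highest in KO 1, so the spread ran across the labels. These 3 were chosen for their errors after the values were seen, and 9 of the 78 had a standard error over 0.15.

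No library stood apart for the whole ribosome. The mean log2 CPM over the 78 genes, given as the difference from the mean of the libraries labelled WT, was 0.06, 0.01 and -0.06 in WT 1, 2 and 3 and 0.03, -0.09 and -0.05 in KO 1, 2 and 3. The large subunit alone gave 0.05, 0.02 and -0.07 and 0.03, -0.10 and -0.04, and the small subunit 0.08, -0.02 and -0.06 and 0.03, -0.08 and -0.06. WT 1 was the highest and KO 2 the lowest library for both subunits. KO 2 was the lowest of the 6 libraries for 26 genes and WT 2 for 18, while WT 2 was the highest for 23 genes and KO 1 for 17.

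**Figure D4:**
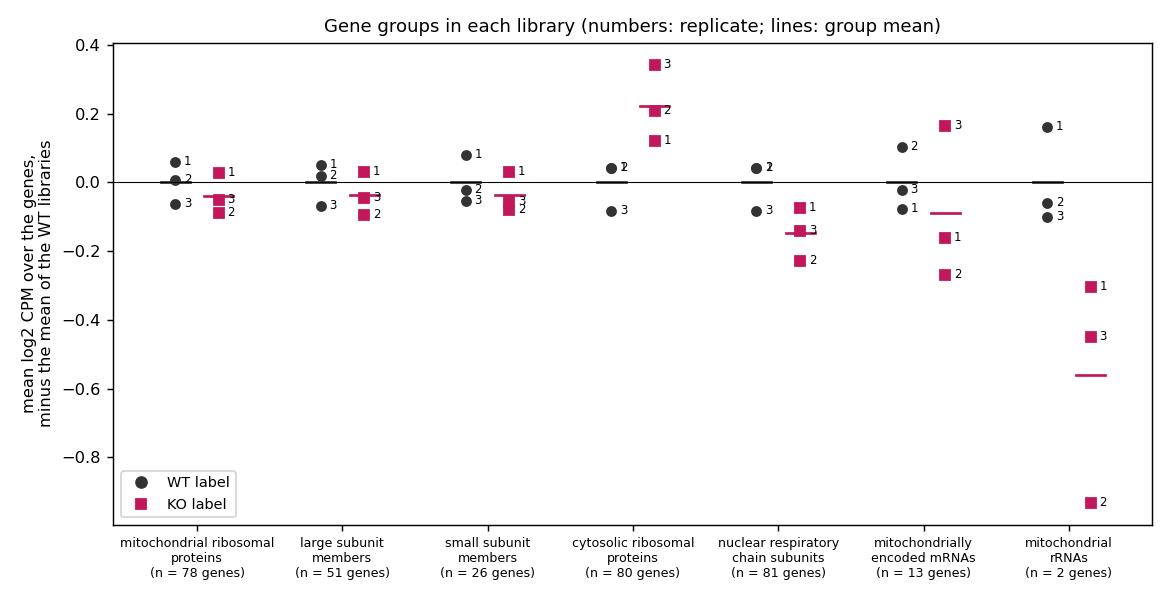
Mean log2 CPM over each gene group in each library, minus the mean of the 3 libraries labelled WT, with replicate numbers beside the points and a line at each group mean. The mitochondrial ribosomal proteins lie between -0.09 and 0.06 with both labels mixed, the cytosolic ribosomal proteins with the KO label lie at 0.12 to 0.34, and the mitochondrial rRNAs with the KO label at -0.93 to -0.30.

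The proteins of the cytosolic ribosome, which translates nuclear transcripts, had another pattern. Of 80 tested, 79 lay above 0 (median 0.24 on the log2 scale), and 43 (53.8%) had separate groups, all higher with the KO label, beside 13.7% of all genes tested that were separate on that side. None passed in edgeR's test, while 21 of 80 (26.3%) had an unadjusted p under 0.05, all higher, beside 19.4% of all genes in either direction and 9.66% on the higher side. The difference in mean log2 CPM from the WT mean was 0.04, 0.04 and -0.08 with the WT label and 0.12, 0.21 and 0.34 with the KO label. Summed TPM of the cytosolic ribosomal proteins was 13.1, 13.0 and 13.0 times that of the mitochondrial ones with the WT label and 14.2, 16.5 and 17.6 times with the KO label, and these ranges did not overlap. Whether the 2 groups of genes differ from each other was not tested.

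Nuclear genes of the respiratory chain, whose products assemble with those made by the mitochondrial ribosome, lay mostly below 0. Of 81 tested, 15 were above 0 and 66 below, with a median of -0.12, and 0 passed in edgeR. These values are for TMM scaling. Without TMM factors, these genes held 1.29, 1.22 and 1.21% of all counts in WT 1, 2 and 3. In KO 1, 2 and 3 they held 1.21, 1.18 and 1.22%, and these ranges overlapped. An unadjusted p under 0.05 in edgeR was found for 1 higher and 18 lower, 23.5% in all. Over all genes tested it was 19.4%, split evenly between the sides (9.66% higher and 9.71% lower), while here nearly all were lower. Separate groups were found for 1 higher and 26 lower, 33.3% in all, beside 26.2% of all genes tested (12.5% on the lower side). Atp5g3, a membrane subunit of ATP synthase, stood at -0.34 ± 0.09. The 13 mRNAs encoded by mitochondrial DNA, which are what the mitochondrial ribosome translates, had a median of -0.05, with 3 above 0 and none of their groups separate. Their summed level was 118196 to 149438 TPM over the 6 libraries.

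**Figure D5:**
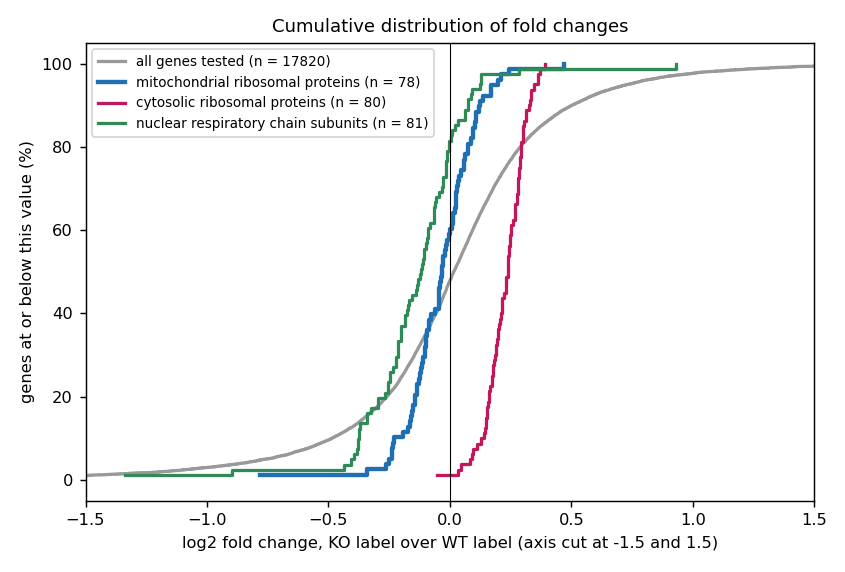
Share of genes at or below each log2 fold change (KO label over WT label) for all 17820 genes tested, the 78 mitochondrial ribosomal proteins, 80 cytosolic ribosomal proteins and 81 nuclear respiratory chain subunits. The curve of the mitochondrial ribosomal proteins is steep around its median of -0.03, between the curves of the other 2 groups of proteins (medians of -0.12 and 0.24).

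Both RNAs of the mitochondrial ribosome had lower counts with the KO label. The transcript of the small subunit rRNA, mt-Rnr1, had means of 619 ± 89.9 and 410 ± 88.2 CPM (SD, n = 3) with the WT and KO labels, a log2 fold change of -0.59 ± 0.19 (SE; adjusted p 0.177 in edgeR), and that of the large subunit rRNA, mt-Rnr2, 836 ± 50.8 and 595 ± 131 CPM (-0.49 ± 0.18, adjusted p 0.206). For both, all libraries labelled KO were below all labelled WT, and KO 2 was the lowest in the mean over both (-0.93 from the WT mean). The libraries were made by a method for mRNA, so these reads are what remained of the rRNA and their level may not follow its amount.

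Some proteins of the mitochondrial ribosome have other names. Dap3, Ptcd3, Chchd1, Aurkaip1 and Gadd45gip1 encode subunits outside the naming scheme, and their log2 fold changes ran from -0.14 (Dap3) to 0.14 (Ptcd3), with 0 of 5 passing and none separate. Among 15 factors of mitochondrial translation, 0 passed and 10 were above 0 (median 0.11). Tufm, the elongation factor that brings aminoacyl-tRNA to the ribosome, stood at -0.26 ± 0.09 with 70.3 ± 0.58 and 58.7 ± 4.71 CPM (SD, n = 3) and separate groups, and Mtif3, an initiation factor, at 0.19 ± 0.09. Taco1, an activator of translation of the cytochrome oxidase subunit COX1, stood at 0.22 ± 0.11.

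Genes of ribosome assembly and rRNA modification had 18 of 25 values above 0, with a median of 0.06 and 0 passing. Mrm2, a methyltransferase of the large rRNA, stood at 0.36 ± 0.12, Trub2, a pseudouridine synthase, at 0.34 ± 0.12, and Mterf3 at 0.26 ± 0.10. Of 17 mitochondrial aminoacyl-tRNA synthetases, 11 were above 0 (median 0.10) and 0 passed, with Sars2 at -0.36 ± 0.12 and Pars2 at 0.41 ± 0.17. Genes that replicate, transcribe and process mitochondrial DNA and RNA had 16 of 25 above 0 (median 0.12) and 0 passing. Among them were Trmt10c, a subunit of the RNase P that releases tRNAs from the transcript (0.48 ± 0.16), Mgme1, an exonuclease (0.39 ± 0.13), and Lonp1, a protease (-0.30 ± 0.10). Adjusted p of every gene in these lists was at least 0.191 in edgeR.

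Regulators of nuclear genes for mitochondria ran from -0.84 to 0.84 on the log2 scale. Ppargc1b, a coactivator of nuclear genes for mitochondria, had 6.39 ± 1.05 and 11.4 ± 2.19 CPM (SD, n = 3) and a log2 fold change of 0.84 ± 0.18 (SE; adjusted p 0.134 in edgeR), with separate groups. Gabpb2, a partner of the ETS factor GABPA, stood at 0.29 ± 0.10 and Nrf1, a factor that binds promoters of nuclear genes for mitochondria, at 0.21 ± 0.09. Of 11 regulators, 8 were above 0 and 0 passed (median 0.13).

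Promoters of the ribosomal protein genes were described by the letters of 4 motifs, since the factors named above are known to bind some of them. RefSeq windows of 300 bases (250 before the start and 50 from it, GRCm38.p6) were at hand for 69 of the 78 genes, 75 windows in all. Mrpl4, Mrpl13, Mrpl15, Mrpl19, Mrpl38, Mrpl54, Mrps28, Mrps34 and Mrps35 were not matched. The core CCGGAAGT, bound by ETS factors such as GABPA, was in 16.0% of the windows of these genes on either strand, in 3.89% of all 32851 windows and in 5.14% of those of protein-coding genes. For GCGCATGC, most of the site of the factor NRF1, the shares were 10.7%, 2.71% and 3.52%, and for AAGATGGC, a YY1 site, 16.0%, 2.75% and 3.05%. TATAAA had the opposite order, with 6.67%, 13.6% and 12.6%.

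Cytosolic ribosomal protein genes had 15.8% for the ETS core, 3.95% for the NRF1 letters and 10.5% for YY1, and nuclear respiratory chain genes 7.04%, 14.1% and 14.1%. The median share of G and C was 58.7% in the windows of the mitochondrial ribosomal proteins, 57.8% in those of the cytosolic ones, 57.7% in those of the respiratory chain, 56.3% for protein-coding genes and 52.7% for all windows. Of the 12 YY1 matches, 8 (66.7%) began at or after the start and read in the direction of the gene. These 8 lay 11 to 36 bases after the start. At any position from the start on, such matches made up 30.6% of those in all windows and 39.3% of those of protein-coding genes. They were 8 of 10 in the windows of the respiratory chain genes (22 to 38 bases after the start). In those of the cytosolic ribosomal proteins they were 2 of 8. Matches are letters in a window and not shown to be bound.

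A further 3 windows show the matches, which stand in capitals. That of Mrpl37 (minus strand, chr4:107066817-107067116) has the YY1 letters 26 bases after the start. That of the abundant gene Mrpl33 (plus strand, chr5:31613701-31614000) has NRF1 and ETS letters next to each other, 12 and 3 bases before the start. That of Mrpl32 (minus strand, chr13:14612988-14613287) has the most matches, 4 of NRF1 counted on both strands and 1 of YY1. Its NRF1 matches 87 and 85 bases before the start overlap in 1 palindromic stretch, GCGCATGCGC.
Mrpl37: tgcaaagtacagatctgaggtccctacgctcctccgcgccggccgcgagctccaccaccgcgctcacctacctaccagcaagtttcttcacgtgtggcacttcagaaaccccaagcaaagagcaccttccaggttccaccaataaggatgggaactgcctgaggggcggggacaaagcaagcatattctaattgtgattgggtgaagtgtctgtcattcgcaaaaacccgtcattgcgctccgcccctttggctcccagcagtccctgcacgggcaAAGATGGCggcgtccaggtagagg
Mrpl33: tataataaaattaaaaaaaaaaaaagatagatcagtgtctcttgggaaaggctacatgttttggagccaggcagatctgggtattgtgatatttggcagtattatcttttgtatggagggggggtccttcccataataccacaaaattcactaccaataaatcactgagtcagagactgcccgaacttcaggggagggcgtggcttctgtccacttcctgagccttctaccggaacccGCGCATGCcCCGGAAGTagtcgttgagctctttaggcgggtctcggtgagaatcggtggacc
Mrpl32: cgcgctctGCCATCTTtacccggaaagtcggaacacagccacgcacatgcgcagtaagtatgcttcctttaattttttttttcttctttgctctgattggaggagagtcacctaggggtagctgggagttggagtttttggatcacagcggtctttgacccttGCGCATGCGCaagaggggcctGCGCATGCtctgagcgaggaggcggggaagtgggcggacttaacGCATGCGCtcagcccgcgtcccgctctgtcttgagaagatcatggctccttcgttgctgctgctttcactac

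The differences of these genes were small. Mrpl37 stood at -0.24 ± 0.13, Mrpl33 at -0.08 ± 0.10 and Mrpl32 at 0.06 ± 0.09 on the log2 scale. Mrpl32 and Mrpl37 are also 2 of 17 genes that start within 500 bases of a protein-coding gene on the other strand and point away from it, Mrpl32 at 75 bases from Psma2, a proteasome subunit, and Mrpl37 at 120 bases from Cyb5rl. Mrps12 starts 172 bases from Sars2, the seryl-tRNA synthetase of mitochondria. Mrps12 stood at -0.17 ± 0.16 and Sars2 at -0.36 ± 0.12.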

How the data were processed

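Read counts, FPKM and TPM per gene were taken from the table the authors deposited, in 1 column of each unit for every library (per the file headers). The deposited counts are whole numbers with no normalization. FPKM, which the authors scaled by gene length and depth, served only for a check, in which FPKM was above 0 for 0 members with no reads. The deposited TPM values gave the levels compared between genes. Tools listed without roles in the submitters' processing notes are StringTie 2.1.3b, HISAT2 2.1.0, Bowtie2 2.3.4.1, bcl2fastq 2.20.0 and FastQC 0.11.7, and the build is mm10. Strand use and the treatment of reads with several matches are not given in the sources used here.

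Libraries were grouped by their titles. No pair agreed within sampling noise (lowest chi-square 50.7 per degree of freedom). The filter was filterByExpr with a minimum count of 10 and a minimum total of 15. Counts were scaled by TMM and fitted by label in edgeR 4.0.16 (R 4.3.3) with robust glmQLFit. Two-sided p-values came from glmQLFTest, were adjusted by the Benjamini-Hochberg method and were read at 0.05. Standard errors and 95% intervals follow from the F statistic and its degrees of freedom, and fits were tested on simulated data. Mean log2 CPM used a prior count of 2. Alternatives used RLE or no scaling, no filter, DESeq2 1.42.0, limma 3.58.1 voom, the replicate block, and each library left out. Exon overlaps came from GENCODE M21 (GRCm38), and coordinates and promoter windows from RefSeq GRCm38.p6, the assembly of mm10.

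Genes named are the 10 members with the smallest p, the 6 with the largest positive and negative differences, the 5 highest and lowest by TPM, Mrps30, Mrps18a and Mrps36, and up to 3 per other list by p. Others are named where a count is small or an overlap bears on them, after their values were seen. The members, lists and tests were chosen with earlier results of these data known.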

Additional observations from a re-analysis of the deposited data

How the results depend on the processing

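The count of 0 genes past the threshold held with RLE scaling, with library size alone, without the filter, with limma voom, with the replicate block and without any 1 of WT 1, WT 2, WT 3, KO 2 or KO 3. It was 1 with DESeq2 and ran from 0 to 2 when single libraries were left out, the 2 being Mrps6 and Mrpl53 without KO 1. With library size alone 58 of 78 genes were above 0 and the median log2 fold change was 0.084, in place of 31 and -0.03, and the cause is the shift of 0.12 that this scaling gives the median of all genes. Leaving out single libraries gave 26 to 39 genes above 0 and medians of -0.06 to -0.0022. With the replicate block 31 genes were above 0 and the median was -0.03. Same-numbered libraries had correlations of deviations of -0.17, -0.02 and 0.05, and differently numbered ones ran from -0.19 to 0.19. With 3 libraries per label these values cannot decide whether a number marks a shared litter, day or batch. No label says that it does. Over all genes the block moved the count of calls from 3 to 1.

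Among the named genes, 11 of 276 values under the alternatives changed sign. Library size alone, which moved the median of all genes by 0.12, put Mrpl30 at 0.0029, Mrpl33 at 0.040, Mrpl35 at 0.083 and Mrps18a at 0.087. The cause of the sign changes with single libraries left out was not tested. Leaving out single libraries gave ranges of -0.015 to 0.16 for Mrpl1, -0.14 to 0.012 for Mrpl33, -0.091 to 0.015 for Mrpl35, -0.54 to 0.0066 for Mrpl54, -0.059 to 0.016 for Mrps18a and -0.083 to 0.078 for Mrps30. The lowest count of any of the 78 genes in a library was 323, counting error was not set against the spread between libraries, and the number of 3 libraries per label limits the precision.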

Other observations

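The deposited table lists 5 pseudogenes with the same symbols, which the rule on biotype leaves out. Mrpl23-ps1 had 118 to 148 reads with the WT label and 135 to 156 with the KO label, and Mrps36-ps1 had 107 to 124 and 87 to 122. Mrpl48-ps and Mrps36-ps2 had 11 to 19 and 20 to 40 reads with the WT label, while Mrps36-ps3 had 0 in all 6 libraries. No source used here says how reads shared with a near-identical copy were counted, so these counts are uncertain.

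The deposited TPM and the TMM-scaled CPM gave opposite directions of the mean for 17 of the 78 genes. In 16 of them TPM was higher and CPM lower with the KO label, and in 1, Mrpl48, TPM was lower and CPM higher. Only the CPM carry TMM factors, which were 0.97, 0.93 and 0.98 in WT 1, 2 and 3 and 1.01, 1.07 and 1.05 in KO 1, 2 and 3. These lower CPM with the KO label relative to the WT label, and their part in each gene was not tested. For Mrpl48 the groups overlapped on both scales. Its mean TPM was 38.2 with the WT label and 35.9 with the KO label, while its mean CPM was 38.4 and 40.0, with a log2 fold change of 0.06 ± 0.08 in edgeR.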
